A study of Saccharomyces cerevisiae with 6 samples.

Results

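The mating-type-specific genes of the budding yeast Saccharomyces cerevisiae were examined as a readout of cell type on 6 one-colour Affymetrix arrays. They are 10 of the 5449 yeast genes that the arrays measured, chosen by gene symbol through the platform's gene annotation. Of these, 6 are a-specific (MFA1, MFA2, STE2, STE6, BAR1 and AGA2) and 4 are alpha-specific (MF(ALPHA)1, MF(ALPHA)2, STE3 and SAG1), and each was read by 1 probe set. There were 3 arrays labelled as a gpm1 mutant, which lacks the phosphoglycerate mutase gene of glycolysis, and 3 labelled wild type (WT). All were made from batch cultures in ethanol and glycerol, and the labels name no mating type, ploidy, strain background or other allele. Nor do they state whether the 3 RNA samples of a label were grown apart, so each p-value rests on a spread that may be technical.

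Haploid yeast cells are of type a or alpha, set by the genes at the MAT locus, and each type makes 1 peptide pheromone and the receptor for the other. In alpha cells the MATALPHA1 protein activates alpha-specific genes together with MCM1, and the MATALPHA2 protein represses a-specific genes together with MCM1 and the CYC8-TUP1 corepressor. In a cells the a-specific genes are on by default and the alpha-specific genes lack their activator. An a/alpha diploid expresses neither set and also represses the haploid-specific genes, which encode shared parts of the mating response.

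GPM1, the gene named in the labels, went against them: its log2 values were 12.51, 12.48 and 11.82 on the arrays labelled gpm1 and 5.16, 5.12 and 5.17 on those labelled WT (limma adjusted p = 8.15e-05). The groups are therefore called labelled gpm1 and labelled WT throughout, and directions follow the labels, not the genotype. The labelled gpm1 arrays also differed more among themselves, with a median SD over all genes of 0.248, against 0.0484 for labelled WT. The first principal component over all genes placed labelled gpm1 replicates 1, 2 and 3 at 33.3, 20.1 and -7.29, and the arrays labelled WT between -15.9 and -14.6. The poly-A control transcripts, spiked in to follow RNA handling, averaged 7.14, 6.67 and 6.21 on labelled gpm1 replicates 1, 2 and 3 and 5.92 to 6.22 on labelled WT. Results are given below with and without labelled gpm1 replicate 3, which lay nearest to labelled WT. That array was chosen on the same values that are compared, so leaving it out favours larger differences and smaller p-values. Without it 2240 genes (41.1%) passed a limma adjusted p of 0.05, where 44 did with all arrays. Values from that fit are a description and no separate test.

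The first question was which of the a-specific and alpha-specific genes lay above background on each array. A probe set was counted as above background where it exceeded the 95th percentile of 1746 probe sets whose gene IDs are not in the S. cerevisiae R64 gene table. That limit lay between 6.08 and 6.12 on the log2 scale on every array, and 4978 genes (91.4%) exceeded it on all 6. All 6 a-specific genes exceeded it on all 6 arrays, by 2.25 to 5.30. Of the 4 alpha-specific genes, 2 exceeded it on every array, STE3 by 0.35 to 0.66 and SAG1 by 1.03 to 1.39. MF(ALPHA)2 exceeded it on none, as did 288 genes (5.29%) in all, and MF(ALPHA)1 exceeded it on labelled gpm1 replicate 2 alone. With the limit at the 99th percentile, all 36 values of a-specific genes stayed above it and 0 of the 24 values of alpha-specific genes did, where 60.5% of all genes exceeded it on all 6 arrays. With the limit at the 90th percentile, 36 of 36 and 18 of 24 values exceeded it, and 94.9% of all genes did so on all 6 arrays. The alpha-specific count thus depended on the limit, which was not so for the a-specific genes at the 3 limits tried. Levels of different probe sets are not comparable with each other. The limit was nearly the same on every array, so a distance from it carries the same caveat. The distances and counts thus describe each gene against background and give no ratio between the 2 sets.

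**Figure D1:**
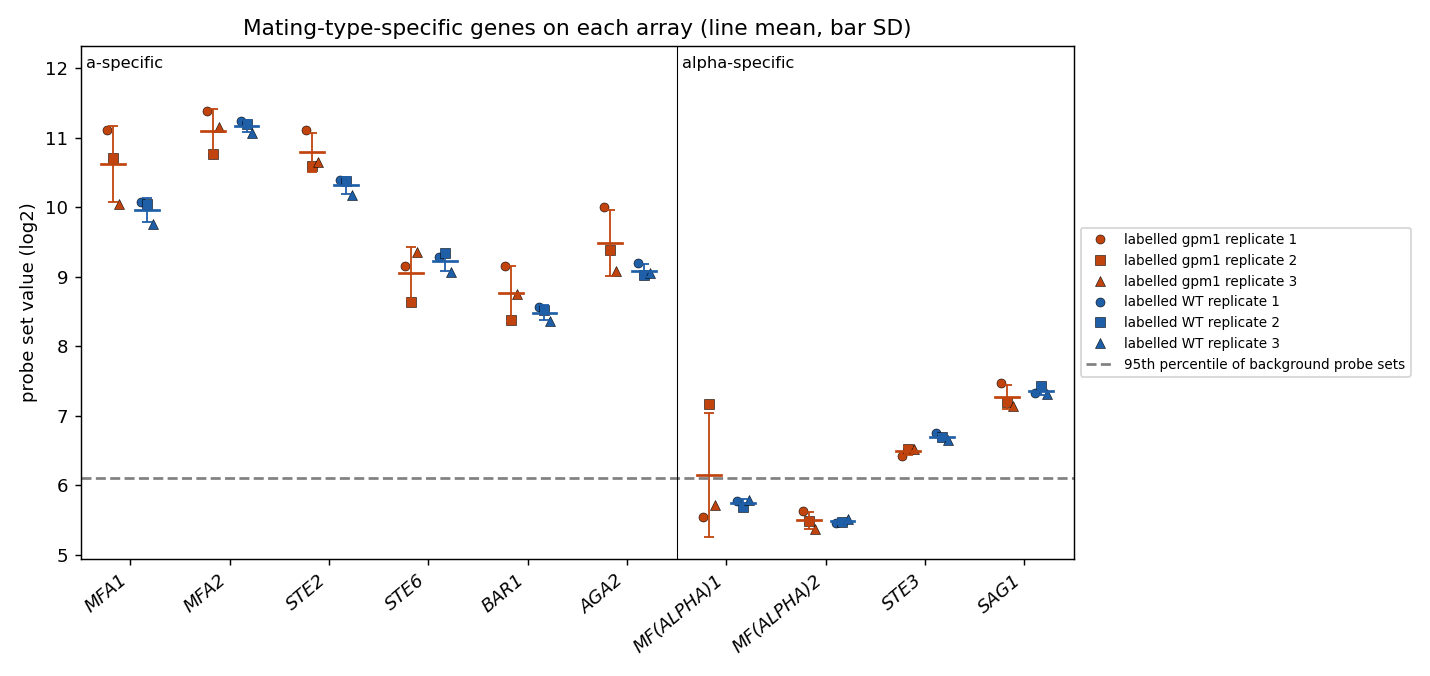
Probe set values (vertical axis, log2) of the 10 mating-type-specific genes (horizontal axis), with labelled gpm1 arrays left of labelled WT arrays for each gene. Points are single arrays, horizontal lines are means and bars are SD (n = 3), and the dashed line is the background limit over all arrays, 6.10. The a-specific genes lie far above that line on all 6 arrays, and MF(ALPHA)1 crosses it on labelled gpm1 replicate 2 alone.

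Among the a-specific genes, those for the pheromone and its export come first. MFA1 and MFA2 encode precursors of the pheromone a-factor, a lipid-modified peptide. MFA1 stood at 11.11, 10.71 and 10.04 on labelled gpm1 replicates 1, 2 and 3, against 10.07, 10.04 and 9.76 on labelled WT. Labelled gpm1 replicates 1 and 2 lay above every labelled WT array, and replicate 3 lay within the labelled WT range. Labelled gpm1 differed from labelled WT by 0.66 on the log2 scale (SE 0.27, limma adjusted p = 0.222), the largest difference in size among the 8 members above background on all 6 arrays. All differences below are log2 values of this direction. MFA2 stood at 11.38, 10.77 and 11.16 on labelled gpm1, against 11.23, 11.19 and 11.06 on labelled WT. Its labelled gpm1 arrays lay on both sides of labelled WT, and its difference was -0.06 (95% interval -0.46 to 0.34, limma adjusted p = 0.829). STE6 encodes the ABC transporter that exports a-factor. It was 9.16, 8.63 and 9.36 on labelled gpm1 and 9.29, 9.34 and 9.06 on labelled WT. The groups overlapped, with labelled gpm1 replicate 2 lowest, and the difference was -0.18 (95% interval -0.67 to 0.31, limma adjusted p = 0.583).

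STE2 encodes the receptor of a cells for alpha-factor, a G protein-coupled receptor. It was 11.11, 10.60 and 10.65 on labelled gpm1, against 10.38, 10.38 and 10.17 on labelled WT. STE2 was the 1 a-specific gene whose labelled gpm1 values all lay above all labelled WT values, at a difference of 0.47 (SE 0.16, 95% interval 0.08 to 0.87, limma adjusted p = 0.201). The exact two-sided permutation p was 0.1, which no comparison of 3 with 3 arrays can go below. BAR1 encodes a secreted protease that cleaves alpha-factor. It was 9.15, 8.37 and 8.75 on labelled gpm1 and 8.56, 8.52 and 8.36 on labelled WT. The groups overlapped, and the difference was 0.27 (95% interval -0.21 to 0.76, limma adjusted p = 0.413). AGA2 encodes the binding subunit of a-agglutinin, which holds mating cells together. Its values were 10.003, 9.38 and 9.08 on labelled gpm1 and 9.19, 9.02 and 9.05 on labelled WT. Labelled gpm1 replicates 1 and 2 lay above labelled WT and replicate 3 within it, at a difference of 0.40 (95% interval -0.17 to 0.97, limma adjusted p = 0.323).

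The alpha-specific genes began with the pheromone. MF(ALPHA)1 is the main and MF(ALPHA)2 the minor gene for the precursor of alpha-factor. MF(ALPHA)1 was 5.55, 7.16 and 5.71 on labelled gpm1 replicates 1, 2 and 3, against 5.77, 5.68 and 5.79 on labelled WT. Only labelled gpm1 replicate 2 exceeded the background limit, by 1.05, and it stood 1.37 above the highest of the other 5 arrays, all of them under the limit. On that array 3 genes of 5449 were at least 1 above all 5 others, which with MF(ALPHA)1 were DBP2, for an RNA helicase, at 1.41 and AAH1, for adenine deaminase, at 1.27. Both were named after their values were seen. MF(ALPHA)2 was 5.62, 5.49 and 5.37 on labelled gpm1, against 5.45, 5.47 and 5.51 on labelled WT, below the limit throughout. No difference between the labelled groups is given for either gene, since the labelled WT arrays held no value of them above background. Neither passed the threshold.

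STE3 encodes the receptor of alpha cells for a-factor. It was 6.42, 6.51 and 6.52 on labelled gpm1, against 6.74, 6.69 and 6.65 on labelled WT. All labelled gpm1 values lay under all labelled WT values, at a difference of -0.21 (SE 0.08, 95% interval -0.41 to -0.00452, limma adjusted p = 0.219), and the exact two-sided permutation test gave p = 0.1. With quantile normalization the difference was -0.10 (limma adjusted p = 0.492). SAG1 encodes alpha-agglutinin, the partner of AGA2. Its values were 7.47, 7.20 and 7.14 on labelled gpm1 and 7.33, 7.42 and 7.30 on labelled WT. The groups overlapped, at a difference of -0.08 (95% interval -0.36 to 0.20, limma adjusted p = 0.667). On labelled gpm1 replicate 2, where MF(ALPHA)1 was high, STE3 and SAG1 differed from the labelled WT mean by -0.18 and -0.15, and MF(ALPHA)2 was under the background limit.

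The next question was whether the labelled groups differed in these genes. No member passed a limma adjusted p of 0.05 over all genes, where 44 of 5449 genes did (0.807%). At an unadjusted p under 0.05 there were 3 members of 10, MFA1, STE2 and STE3, against 22.4% of all genes. The groups did not overlap for 2 of the 10, against 34.6% of all genes. These were STE2, higher in labelled gpm1 as were 19.2% of all genes, and STE3, lower as were 15.4%. With 10 members, neither count stands out from the share over all genes. The median log2 difference was 0.34 for the a-specific genes, beside 0.02 over all genes. The intervals given for single genes are not adjusted for the number of genes, and 3 arrays per group leave them wide. In RNA from whole cultures, fewer cells of a type and less RNA per cell cannot be told apart.

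**Figure D2:**
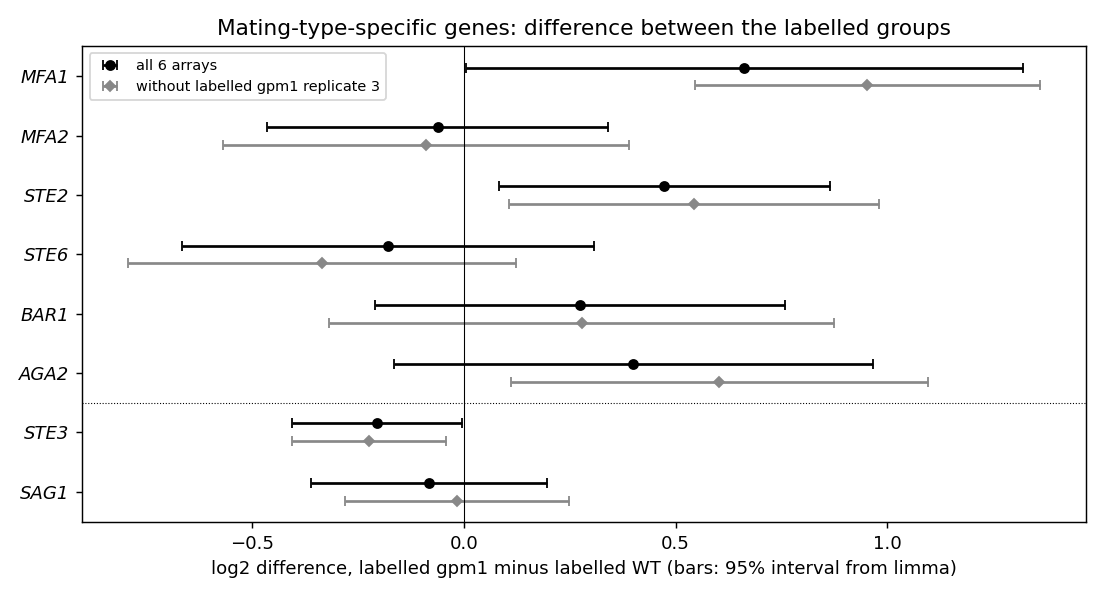
Labelled gpm1 minus labelled WT on the log2 scale (horizontal axis) for the 8 genes above background on all 6 arrays (vertical axis), with all 6 arrays (black) and without labelled gpm1 replicate 3 (grey). Bars are 95% intervals for single genes from limma. The largest difference is that of MFA1, 0.66 with all arrays and 0.95 without that array.

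The arrays labelled gpm1 differed in how the a-specific genes stood against the labelled WT mean. On labelled gpm1 replicate 1, 5 of the 6 were above it and STE6 was 0.07 below, with a median difference of 0.74. On replicate 2 they went both ways, with MFA1, AGA2 and STE2 above it by 0.75, 0.29 and 0.28 and BAR1, MFA2 and STE6 at -0.11, -0.40 and -0.60. On replicate 3 the differences lay between -0.00629 and 0.33. For MFA1 these differences were 1.15, 0.75 and 0.08, and these arrays had the same rank order in the first principal component (33.3, 20.1 and -7.29) and in the level of poly-A control transcripts (7.14, 6.67 and 6.21). Their part in the result was not tested. STE3 differed by -0.27, -0.18 and -0.17 and SAG1 by 0.12, -0.15 and -0.21. Leaving out labelled gpm1 replicate 1 gave differences of 0.42 for MFA1, 0.31 for STE2, 0.14 for AGA2 and 0.08 for BAR1, each under the value with all arrays by more than 1.5 times. Without labelled gpm1 replicate 3, MFA1 differed by 0.95 (SE 0.16, limma adjusted p = 0.00868), and no other member passed in that fit. There 2240 of all genes (41.1%) passed, and 21.6% passed as higher. STE2 stood at 0.54 (limma adjusted p = 0.0557) there, alpha-specific STE3 at -0.22 (limma adjusted p = 0.0564) and AGA2 at 0.60 (limma adjusted p = 0.0578). The share of members past the threshold in that fit, 1 of 10, lies under that of all genes.

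The a-specific genes did not all follow the same course over the 6 arrays, and the correlations given here are a description, since the arrays share the departures described above. MFA1, STE2 and AGA2 had Pearson correlations of 0.887 to 0.932 with each other. BAR1 had 0.879 with STE2, 0.765 with AGA2, 0.754 with MFA2 and 0.623 with MFA1. MFA2 and STE6 had 0.805 with each other. MFA1 and MFA2, both for a-factor, had 0.079, and MFA1 and STE6 had -0.422. The spread among the labelled gpm1 arrays was a median SD of 0.383 for the a-specific and 0.151 for the alpha-specific genes, against 0.112 and 0.0528 among labelled WT. Over all genes these medians were 0.248 and 0.0484. Their ratio was 3.43 for the a-specific and 2.86 for the alpha-specific genes, under the 5.12 of all genes. MF(ALPHA)1 by itself had an SD of 0.891 on labelled gpm1. The genes that are no members with the course most like that of MFA1 were YMR001C-A, NPC2, for a sterol transfer protein, YJR084W, STE5 and KTR6, for a mannosyltransferase, with Pearson correlations of 0.996 to 0.999. With 489 of 5439 genes at 0.95 or more, such likeness was common on these arrays.

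The genes listed as regulators of mating type were read next. Of these, the background above gives a part in the specific genes to MATALPHA1, MATALPHA2, MCM1, CYC8 and TUP1 only. Of 9 listed, 6 were measured and MATALPHA1, MATALPHA2 and HMLALPHA2 were not analysed here. HMLALPHA1 names the copy of the alpha1 activator gene at the silent HML locus. It was 5.38, 5.32 and 5.30 on labelled gpm1 and 5.33, 5.32 and 5.34 on labelled WT, under the background limit on all 6 arrays. The probe set's name ends in _s_at, a form given to probe sets that can bind more than 1 transcript, and probe sequences were not used here. HMRA1 and HMRA2 name the a1 and a2 genes of the silent HMR locus, which carries the same sequence as MAT in an a cell, so that the 2 sources cannot be told apart. HMRA1 was 7.87, 7.94 and 8.70 on labelled gpm1, against 8.69, 8.65 and 8.58 on labelled WT. It was above the limit on all 6 arrays and lowest on labelled gpm1 replicates 1 and 2, at a difference of -0.47 (SE 0.23, limma adjusted p = 0.257). Without labelled gpm1 replicate 3 its difference was -0.73 (limma adjusted p = 0.00196), in a fit where 41.1% of all genes passed. HMRA2, also read by an _s_at probe set, was 9.07, 8.26 and 8.61 on labelled gpm1 and 8.79, 8.77 and 8.63 on labelled WT, at a difference of -0.08 (limma adjusted p = 0.825).

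MCM1, the MADS-box factor that acts at both sets of genes, averaged 8.78 ± 0.24 on labelled gpm1 and 8.62 ± 0.07 on labelled WT (SD, n = 3 each). CYC8 averaged 8.23 ± 0.21 on labelled gpm1 and 8.34 ± 0.02 on labelled WT, and TUP1 9.25 ± 0.12 on labelled gpm1 and 9.13 ± 0.03 on labelled WT. The 3 differences were 0.16, -0.11 and 0.12, with limma adjusted p-values of 0.470, 0.573 and 0.433, and none passed the threshold. Among the SIR genes, whose products keep HML and HMR silent, 0 of 4 passed (median difference -0.01). SIR1 was 7.09, 6.98 and 7.52 on labelled gpm1, against 7.69, 7.71 and 7.68 on labelled WT. All its labelled gpm1 values lay under labelled WT, as for 15.4% of all genes, at a difference of -0.50 (limma adjusted p = 0.196). Without labelled gpm1 replicate 3 the difference was -0.66 (limma adjusted p = 0.00228), in a fit where 41.1% of all genes passed. SIR2, for the histone deacetylase of the complex, differed by 0.15 (limma adjusted p = 0.359).

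**Figure D3:**
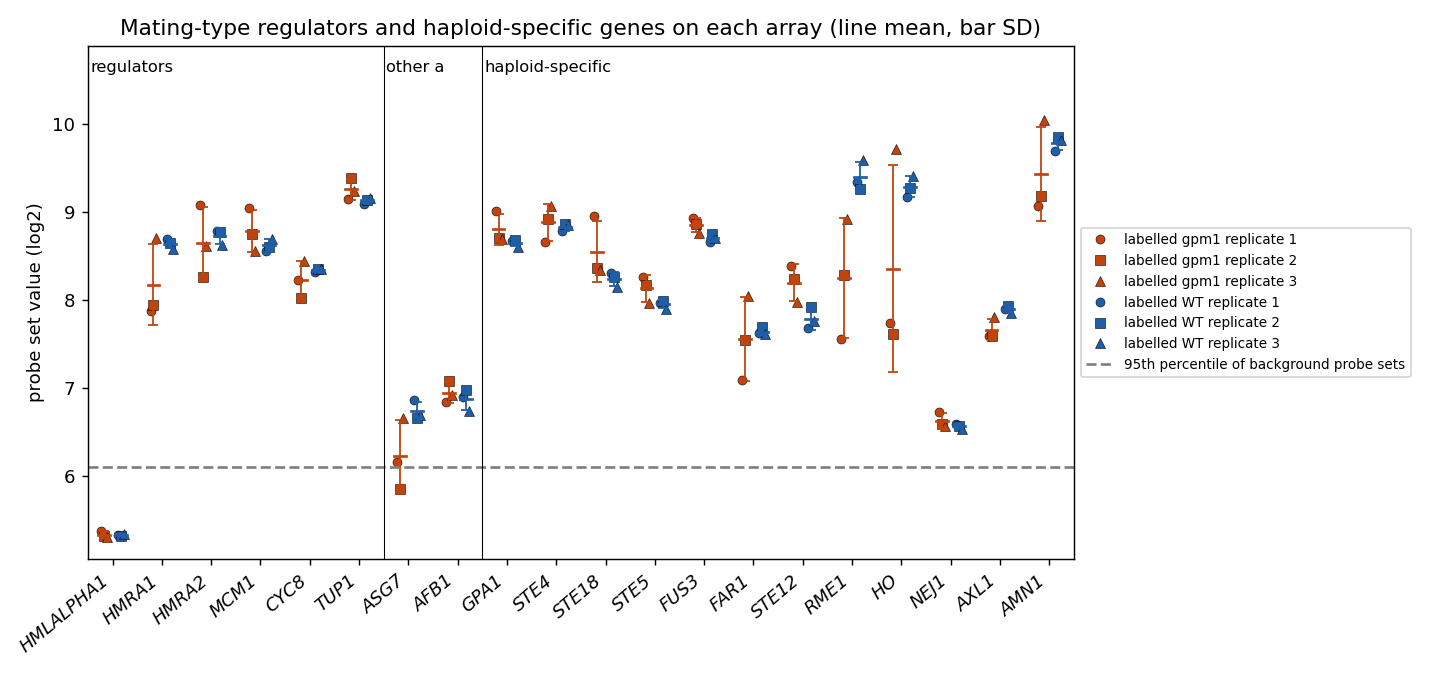
Probe set values (vertical axis, log2) of mating-type regulators, ASG7, AFB1 and 12 haploid-specific genes (horizontal axis), with labelled gpm1 left of labelled WT. ASG7 is a-specific and AFB1 alpha-specific, though both were listed as other a-specific genes. Points are single arrays, lines are means and bars are SD (n = 3), and the dashed line is the background limit over all arrays, 6.10. HMLALPHA1 lies under the line and every haploid-specific gene above it on all 6 arrays.

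Haploid-specific genes, which an a/alpha diploid represses, were all above the background limit on all 6 arrays, 12 of 12, beside 91.4% of all genes. None passed the threshold (median difference 0.06). The groups did not overlap for 6 of the 12, 4 of them higher and 2 lower in labelled gpm1, beside 34.6% of all genes. RME1, for a repressor of entry into meiosis, was 7.55, 8.29 and 8.91 on labelled gpm1, against 9.34, 9.26 and 9.59 on labelled WT. Its labelled gpm1 values all lay under labelled WT, at a difference of -1.15 (SE 0.33, limma adjusted p = 0.196). STE12, for the transcription factor of the pheromone response, was 8.38, 8.23 and 7.97 on labelled gpm1, against 7.68, 7.91 and 7.76 on labelled WT. Its labelled gpm1 values all lay above labelled WT, at 0.41 (SE 0.13, limma adjusted p = 0.196). Without labelled gpm1 replicate 3, 6 of the 12 passed, 2 higher and 4 lower, where 41.1% of all genes passed. In that fit RME1 differed by -1.48 (limma adjusted p = 0.00745) and STE12 by 0.53 (limma adjusted p = 0.0126). Of the 8 genes of meiosis, a program of a/alpha diploids, 0 passed (median 0.01). IME1, for the activator of meiosis, was 6.17, 6.27 and 6.40 on labelled gpm1, against 6.70, 6.63 and 6.71 on labelled WT, at a difference of -0.40 (limma adjusted p = 0.162). NDT80, for a later meiotic activator, differed by -0.45 (limma adjusted p = 0.219). Of the 8 genes, 4 were above the background limit on all 6 arrays, where 91.4% of all genes were. Another 2, IME4 and SPO13, were above it on no array, as were 5.29% of all genes. These 2 were named after their values were seen.

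ASG7, a further a-specific gene, and AFB1, an alpha-specific gene that had been listed with it, were also measured. ASG7, for an inhibitor of signalling after mating, was 6.16, 5.85 and 6.66 on labelled gpm1, against 6.86, 6.66 and 6.69 on labelled WT. Labelled gpm1 replicates 1 and 2 were lowest and replicate 2 lay under the background limit, at a group difference of -0.51 (SE 0.21, limma adjusted p = 0.221). When labelled gpm1 replicate 3 was left out, the difference was -0.73 for ASG7 (limma adjusted p = 0.00846) and 0.95 for MFA1. In that fit 41.1% of all genes passed. AFB1, for a secreted protein that binds a-factor, averaged 6.95 ± 0.12 on labelled gpm1 and 6.87 ± 0.12 on labelled WT (SD, n = 3 each). It was above the background limit on all 6 arrays, as were STE3, SAG1 and 91.4% of all genes.

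The remaining question was whether the rest of the mating pathway differed between the labelled groups. Of 11 signalling genes used in every cell type, 0 passed the threshold (median difference 0.06). STE20, for a kinase at the head of the cascade, was 9.08, 9.05 and 8.57 on labelled gpm1, against 8.44, 8.42 and 8.31 on labelled WT. Its groups did not overlap, as for 3 of the 11 and 34.6% of all genes, at 0.51 (SE 0.16, limma adjusted p = 0.196). DIG1, for an inhibitor of STE12, was 8.19, 8.20 and 8.57 on labelled gpm1, against 8.63, 8.62 and 8.66 on labelled WT, at -0.32 (SE 0.13, limma adjusted p = 0.219). Without labelled gpm1 replicate 3, STE20 differed by 0.67 (limma adjusted p = 0.00251) and DIG1 by -0.45 (limma adjusted p = 0.00511). In that fit 41.1% of all genes passed. Among 9 genes that process pheromone precursors, 0 passed (median -0.05). RAM2, for a farnesyltransferase subunit that acts on a-factor, differed by -0.34 (limma adjusted p = 0.250), and RCE1, for a protease of the same path, by -0.22 (limma adjusted p = 0.268).

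Genes that pheromone induces also had 0 of 21 past the threshold, with a median difference of 0.00274. PRM2, for a membrane protein of mating cells, was 7.10, 6.91 and 7.04 on labelled gpm1, against 7.46, 7.44 and 7.38 on labelled WT. Its groups did not overlap, as for 7 of the 21 and 34.6% of all genes, at -0.41 (SE 0.09, limma adjusted p = 0.140). AFR1, which acts in pheromone-induced cell shape, differed by -0.46 (limma adjusted p = 0.204). PRM2 and AFR1 were farthest from the labelled WT mean on labelled gpm1 replicate 2, at -0.52 and -0.79. The 3 farthest values of the whole list were on labelled gpm1 replicate 1, those of GIC2, PRM5 and FUS1, at 2.70, 2.69 and 1.52. GIC2, for a CDC42 effector, was 11.43, 9.67 and 9.12 on labelled gpm1, against 8.73, 8.80 and 8.65 on labelled WT. PRM5 was 10.65, 8.63 and 7.53 on labelled gpm1, against 8.01, 7.89 and 7.99 on labelled WT. FUS1, a cell fusion gene, was 9.0, 7.79 and 7.57 on labelled gpm1, against 7.61, 7.53 and 7.27 on labelled WT. These 3 genes were named after their values were seen, and their limma adjusted p-values were 0.223, 0.423 and 0.315. The list median was 0.25 on labelled gpm1 replicate 1, -0.14 on replicate 2 and -0.07 on replicate 3. When labelled gpm1 replicate 3 was left out, 5 of the 21 passed, 3 of them higher and 2 lower, which is 23.8% of the list beside 41.1% of all genes.

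**Figure D4:**
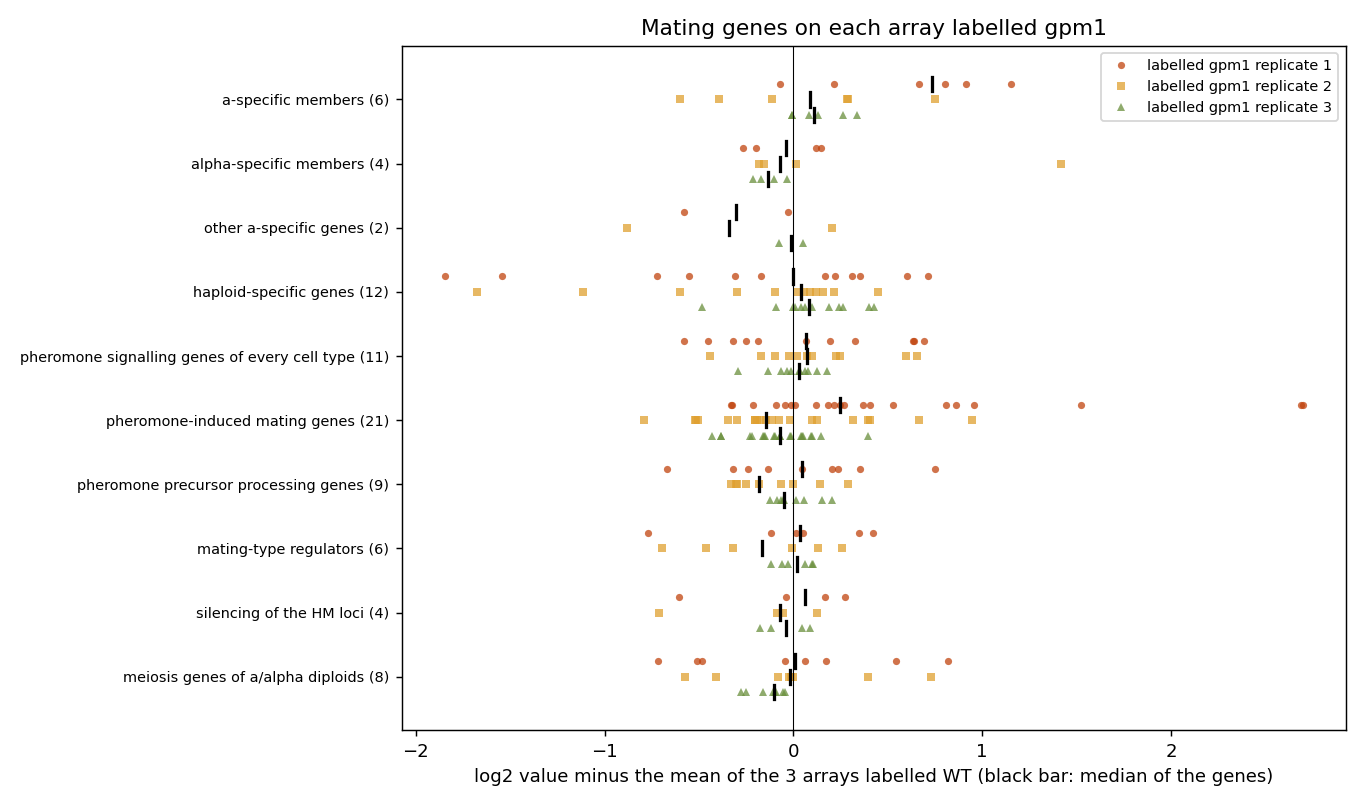
Log2 value minus the mean of the 3 labelled WT arrays (horizontal axis) for each measured gene of each list (vertical axis, number of genes in brackets) on labelled gpm1 replicates 1, 2 and 3. Black bars are medians, and the alpha-specific set holds MF(ALPHA)1 and MF(ALPHA)2, which lay under the background limit on 5 and 6 arrays. The list named other a-specific genes holds ASG7 and AFB1, of which AFB1 is alpha-specific. The a-specific median is 0.74 on replicate 1, 0.09 on replicate 2, where the genes go both ways, and 0.11 on replicate 3, and the pheromone-induced genes spread widest on replicate 1.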

How the data were processed

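Probe set values were made by the authors with PLIER, according to the submitters' processing notes. The values as deposited ran between 4.88 and 13.1 and were read as log2. No log base, offset or scaling between arrays is given in the sources used here, and an offset would shrink differences of dim genes.

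Of 10928 probe sets, 5498 had a gene ID in the S. cerevisiae R64 table, used for names only. Each gene was read by its brightest probe set, by the mean of all 6 arrays, which left 5449 genes. No coordinates or sequences are given.

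Labelled gpm1 was compared with labelled WT by limma 3.58.1 (lmFit, eBayes) in R 4.3.3, two-sided, with Benjamini-Hochberg adjustment over 5449 genes and a threshold of 0.05. No set test was run.

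The members and lists were chosen with earlier results of these data known. Genes named were the members, GPM1, the measured regulators, ASG7 and AFB1, the 2 genes of smallest p from each other list, as none had a gene past the threshold, and the 5 most like MFA1 by Pearson correlation. Any other gene is marked as named after its values were seen. Alternatives were quantile normalization, centring, an offset of 16, leaving out the dimmest 20% of genes, averaging probe sets, leaving out each array, a replicate block, an eBayes prior with trend and robust settings, and other background limits.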

Additional observations from a re-analysis of the deposited data

How the results depend on the processing

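No member passed the limma threshold in any alternative except MFA1 without labelled gpm1 replicate 3, so leaving out 1 array gave 0 to 1 a-specific and 0 to 0 alpha-specific genes. Over all genes the count was 44, with 11 to 2240 when 1 array was left out. For the lists the count was 0 with all arrays. Leaving out 1 array gave 0 to 1 for the list of ASG7 and AFB1, the regulators and silencing, and 0 to 2 for processing. It gave 0 to 3 for meiosis, 0 to 4 for signalling, 0 to 5 for pheromone-induced and 0 to 6 for haploid-specific genes. Each count was highest without labelled gpm1 replicate 3. Directions turned with 1 array left out for MFA2 (-0.20 to 0.10) and STE6 (-0.34 to 0.031). The cause was not tested. The fitted values of MF(ALPHA)2 (-0.045 to 0.080, and -0.0021 with arrays centred) are of signal at background and have no direction. Those of MF(ALPHA)1 (-0.12 to 0.69) rest on labelled gpm1 replicate 2, its only array above background, and are given no direction either. The value of -0.12 is from the fit without that array. Same-numbered arrays had correlations of 0.05, 0.02 and -0.13 between their deviations, so the numbers were not taken as pairs. With the replicate block 31 genes and 0 members passed. The dim filter left out 3 members. Alpha-specific values above background were 13 of 24, with 0 at the 99th and 18 at the 90th percentile.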

Other observations

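Among the haploid-specific genes the widest spread between arrays labelled gpm1 was that of HO, for the endonuclease that switches mating type. It was 7.74, 7.61 and 9.71 on labelled gpm1 replicates 1, 2 and 3, against 9.17, 9.27 and 9.41 on labelled WT. AMN1, a gene of mitotic exit and cell separation, was 9.06, 9.18 and 10.05 on labelled gpm1, against 9.69, 9.85 and 9.81 on labelled WT. On both, labelled gpm1 replicates 1 and 2 were below all labelled WT arrays and replicate 3 above them. The limma adjusted p was 0.327 for HO and 0.418 for AMN1 with all arrays. Without labelled gpm1 replicate 3, HO differed by -1.61 (limma adjusted p = 0.000798) and AMN1 by -0.66 (limma adjusted p = 0.00384). In that fit 41.1% of all genes passed. Both genes were named after their values were seen.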
